A study of Mus musculus with 2 samples.

Results

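The Fc gamma receptors are the proteins by which macrophages sense antibody-coated particles. The gene set described here holds 8 mouse genes, taken as the rows of the deposited count table whose Ensembl identifiers map to Fcgr1, Fcgr2b, Fcgr3, Fcgr4, Fcer1g, Fcgrt, Syk and Inpp5d. All 8 were found among the 22060 genes of the table, and all 8 were among the 11199 genes that reached 20 counts over both libraries, which are called measured below. The rule names genes by family and function and uses no measured value, but the genes were chosen with earlier results of these data known.

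The data are RNA sequencing of unstimulated bone marrow-derived macrophages (BMDM) of C57BL/6 mice aged 8 weeks, grown from marrow in a culture of 7 days with M-CSF, which drives marrow progenitors to become macrophages. There was 1 T403A library, from cells whose STAT2 carries the T403A substitution (threonine to alanine), and 1 wild-type (WT) library. STAT2 is part of the complex that switches on genes after type I interferon. Both libraries are labelled 0 h, and the labels name no treatment beyond M-CSF, which both share. The labels do not say how many animals gave each library, their sex, or how the substitution was introduced.

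An Fc gamma receptor binds the constant part of IgG. In the mouse, the activating receptors encoded by Fcgr1, Fcgr3 and Fcgr4 have no signalling motif of their own and pair with the common gamma chain encoded by Fcer1g, which carries an activation motif (ITAM). When receptors are clustered, Src family kinases phosphorylate the ITAM and the kinase Syk docks on it, which starts uptake of the particle and the oxidative burst. Fcgr2b encodes the inhibitory receptor, whose inhibitory motif recruits the lipid phosphatase SHIP1, the product of Inpp5d. Fcgrt encodes the heavy chain of FcRn, which pairs with beta-2-microglobulin inside the cell and carries IgG back to the surface. Fcgr1 is a textbook target of interferon in macrophages.

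Counts were scaled with TMM and are given as CPM, the counts relative to the library total as adjusted by TMM. Since each genotype is 1 library, there is no replicate check and no p-value, and what is compared is the pair of libraries rather than the genotypes. Ratios carry an exact 95% interval that covers counting error only. A gene was counted as lower or higher where its ratio reached 1.5-fold with an interval that left out 1. The T403A library held 18658381 counts and the WT library 16033032. The targeted gene, Stat2, was at 84.4 CPM in T403A and 376 CPM in WT, which does not check a change of 1 amino acid. Macrophage markers were abundant in both libraries (Csf1r at 5503 CPM in T403A and 7146 CPM in WT, Lyz2 at 29804 and 36620 CPM), while 5 of 6 NK cell markers, 3 of the 4 T cell markers found in the table and 2 of 6 B cell markers had no count in either library.

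Promoter windows of 3 receptor genes are shown first. The genes were picked by their values, since Fcgr1 and Fcgr4 were both much lower in T403A while Fcgr3, which lies beside Fcgr4, was not. A contrast of matches between genes picked this way is no test of a cause. Each line gives the 250 bases upstream of a RefSeq transcript start (GRCm38.p6), 5′ to 3′ on the gene's strand. Capitals mark matches to any of 3 patterns searched on both strands: TTCNNNGAA, the GAS pattern bound by STAT dimers, GAAANNGAA, a core of the interferon response element (ISRE), and GAGGAA, a core of PU.1 sites. The windows are chr3:96293970-96294219 on the minus strand for Fcgr1, chr1:171018676-171018925 on the plus strand for Fcgr4, and chr1:171059395-171059644 on the minus strand for the more downstream of the annotated Fcgr3 starts.
Fcgr1: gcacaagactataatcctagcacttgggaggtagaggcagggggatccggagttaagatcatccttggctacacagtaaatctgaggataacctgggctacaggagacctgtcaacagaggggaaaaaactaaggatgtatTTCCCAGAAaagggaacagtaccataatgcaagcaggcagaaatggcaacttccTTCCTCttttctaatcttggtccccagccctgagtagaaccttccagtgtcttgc
Fcgr4: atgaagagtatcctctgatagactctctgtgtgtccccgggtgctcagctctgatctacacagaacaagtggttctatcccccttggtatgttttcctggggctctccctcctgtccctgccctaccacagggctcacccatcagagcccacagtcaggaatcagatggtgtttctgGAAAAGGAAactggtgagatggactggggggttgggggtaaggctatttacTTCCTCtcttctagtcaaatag
Fcgr3: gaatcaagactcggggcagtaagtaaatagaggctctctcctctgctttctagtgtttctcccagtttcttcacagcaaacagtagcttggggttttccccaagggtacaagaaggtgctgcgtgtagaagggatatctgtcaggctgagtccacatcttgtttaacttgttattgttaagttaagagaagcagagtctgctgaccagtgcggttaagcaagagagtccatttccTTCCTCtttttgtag

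The Fcgr1 window held the GAS match TTCCCAGAA at 109 to 101 bases before the start and a PU.1 core on the opposite strand at 55 to 50 bases. The Fcgr4 window held the ISRE core match GAAAAGGAA at 73 to 65 bases and a PU.1 core on the opposite strand at 22 to 17 bases. The annotated Fcgr3 windows (171059395 to 171059644 and 171059404 to 171059653) overlap almost wholly. They held the same single PU.1 core and neither interferon-related pattern. The GENCODE M21 gene begins further upstream, at 171064935 on the minus strand, and the sequence before that start was not searched. Among the windows of the other 5 genes, those of Inpp5d and 1 of 2 of Syk held a PU.1 core, and no window of Fcgr2b, Fcer1g or Fcgrt matched any pattern. Of all 32851 RefSeq windows of this length, 7.02% held the GAS pattern, 7.13% the ISRE core and 23.3% the PU.1 core. A match is a description of letters, and whether any factor binds these sites was not tested.

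In T403A macrophages the high-affinity receptor gene Fcgr1 and the receptor gene Fcgr4 were lower by 8.76-fold and 7.36-fold, and the inhibitory receptor gene Fcgr2b was lower by 1.83-fold. Fcgr3, the common gamma chain gene Fcer1g, the FcRn gene Fcgrt and the signalling genes Syk and Inpp5d were all within 1.5-fold. Thus 3 of 8 genes were counted as lower and 0 as higher. Of all measured genes, 10.8% were lower and 13.5% higher by the same rule. At 2-fold, 2 of the 8 genes were lower and 0 higher, where 6.08% of all measured genes were lower and 7.21% higher. The median log2 ratio of the 8 genes was -0.29, against 0.01 over all measured genes.

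**Figure D1:**
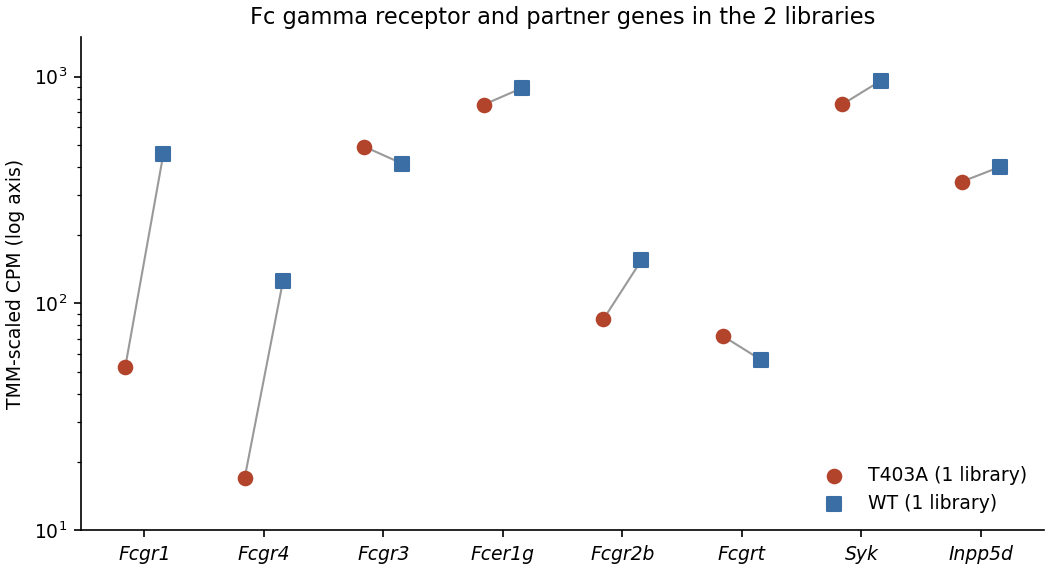
TMM-scaled CPM (log axis) of the 8 genes in the T403A library (circles) and the WT library (squares), with a line joining the values of each gene. Fcgr1 stood at 52.3 CPM in T403A and 458 CPM in WT and Fcgr4 at 17.1 and 125 CPM, while Fcgr3 stood at 492 and 413 CPM and Fcgrt at 71.9 and 56.4 CPM.

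Among the activating receptors, Fcgr1 (ENSMUSG00000015947, chromosome 3, 96282909 to 96293969, minus strand) had 1043 counts in T403A and 6874 in WT. Scaled, this was 52.3 CPM in T403A and 458 CPM in WT, 8.76-fold lower (interval 8.21 to 9.36). Its log2 ratio was the 141st lowest of the 11199 measured genes. In bulk RNA, fewer cells that express a gene and less RNA per cell cannot be told apart.

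Fcgr4 (ENSMUSG00000059089, chromosome 1, 171018920 to 171029761, plus strand), which encodes a receptor for IgG2a and IgG2b in the mouse, had 340 counts in T403A and 1882 in WT. This was 17.1 CPM in T403A and 125 CPM in WT, 7.36-fold lower (6.55 to 8.28). Its log2 ratio ranked 155th lowest. The ratio of Fcgr1 to Fcgr4 counts was 3.07 in T403A and 3.65 in WT, so these genes differed between the libraries by nearly the same factor. The count ratio was 0.84 times as large in T403A (exact interval 0.735 to 0.962).

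Fcgr3 (ENSMUSG00000059498, chromosome 1, 171051174 to 171064935, minus strand), the low-affinity activating receptor, had 9802 counts in T403A and 6199 in WT. Its level was 492 CPM in T403A and 413 CPM in WT, a ratio of 1.19 (1.152 to 1.228). Fcgr3 thus stood against the other activating receptor genes. Relative to Fcgr3, Fcgr1 was 10.4-fold lower in T403A (9.69 to 11.2) and Fcgr4 8.75-fold lower (7.76 to 9.90), values that no library scaling can change.

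Fcer1g (ENSMUSG00000058715, chromosome 1, 171229572 to 171234365, minus strand) had 15006 counts in T403A and 13365 in WT. Its level was 753 CPM in T403A and 891 CPM in WT, a ratio of 0.845 (0.825 to 0.865). The gamma chain gene thus lay between Fcgr3 and the much lower Fcgr1 and Fcgr4. Summed over Fcgr1, Fcgr3 and Fcgr4, the activating receptors had 561 CPM in T403A and 997 CPM in WT, 1.78-fold lower (1.73 to 1.82). Per count of these receptors there were 1.34 Fcer1g counts in T403A and 0.894 in WT, a 1.501-fold higher ratio in T403A (1.45 to 1.55).

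Fcgr2b (ENSMUSG00000026656, chromosome 1, 170958617 to 170976547, minus strand) had 1694 counts in T403A and 2329 in WT. Its level was 84.95 CPM in T403A and 155 CPM in WT, 1.83-fold lower (1.72 to 1.95). Relative to Fcgr2b, Fcgr3 was 2.17-fold higher in T403A (2.03 to 2.33), Fcgr1 4.79-fold lower (4.38 to 5.25) and Fcgr4 4.03-fold lower (3.53 to 4.60).

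A limit bears on the pair Fcgr2b and Fcgr3, whose coding sequences were identical at 87.5% of 782 aligned bases, against 67.8% to 69.8% for the other pairs of receptors. In windows of 100 bases along annotated transcripts, 2.54% of those of Fcgr3 recurred in a transcript of Fcgr2b. Of the Fcgr2b windows 4.3% recurred in other genes, among them Fcgr3 and the antisense Gm38204, and none of those of Fcgr1 or Fcgr4 recurred in another gene. With the reads of both genes summed, the ratio was 1.01 (0.986 to 1.04), at 577 CPM in T403A and 568 CPM in WT. Most of the summed reads are those of Fcgr3, so the sum gives no direction for Fcgr2b. Whether reads of this pair were assigned to the wrong gene was not tested. The exons of Fcgr2b also overlap an antisense gene, Gm38204, on the opposite strand, and the strand setting of the counting is not stated.

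**Figure D2:**
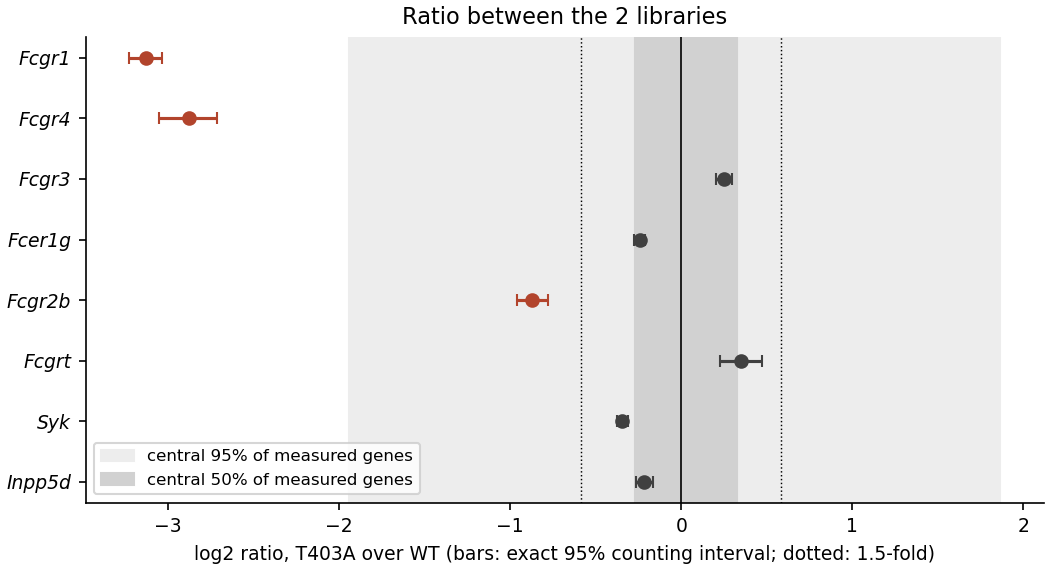
Log2 ratio of T403A over WT for each of the 8 genes, with bars for the exact 95% counting interval and dotted lines at 1.5-fold. Dark and light bands span the central 50% and 95% of the 11199 measured genes, and Fcgr1 (-3.13) and Fcgr4 (-2.88) lie below both bands.

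The lower Fcgr1 and Fcgr4 counts changed the make-up of the receptor transcripts. Of the counts of the 4 receptor genes, Fcgr3 took 76.1% in T403A (Wilson interval 75.4 to 76.8) and 35.9% in WT (35.2 to 36.6). Fcgr1 took 8.10% in T403A (7.64 to 8.58) and 39.8% in WT (39.0 to 40.5). Fcgr4 took 2.64% in T403A (2.38 to 2.93) and 10.9% in WT (10.4 to 11.4). The share of the inhibitory Fcgr2b was 13.2% in T403A (12.6 to 13.7) and 13.5% in WT (12.97 to 13.99). The order of Fcgr1 and Fcgr3 in WT depended on gene length, with an Fcgr1 to Fcgr3 ratio of 1.11 on counts, 0.744 per kilobase of deposited length and 0.577 per kilobase of the longest coding transcript. In T403A this ratio was 0.106, 0.0713 and 0.0554 by the same measures, so Fcgr3 was ahead by all 3.

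The balance of activating to inhibitory receptors depended on how gene length was treated. On raw counts, Fcgr1, Fcgr3 and Fcgr4 together had 6.60 counts per Fcgr2b count in T403A and 6.42 in WT, a ratio between the libraries of 1.03 (exact interval 0.961 to 1.10). Per kilobase of the deposited gene length, the activating to inhibitory ratio was 21.6 in T403A and 19.2 in WT. Per kilobase of the longest annotated coding transcript it was 16.6 in T403A and 13.3 in WT. The deposited length of Fcgr2b, 5790 bases, counts every annotated exon, while its coding transcripts run from 1084 to 3544 bases. The ratio was higher in T403A under all 3 treatments of length, and on raw counts the interval included 1.

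**Figure D3:**
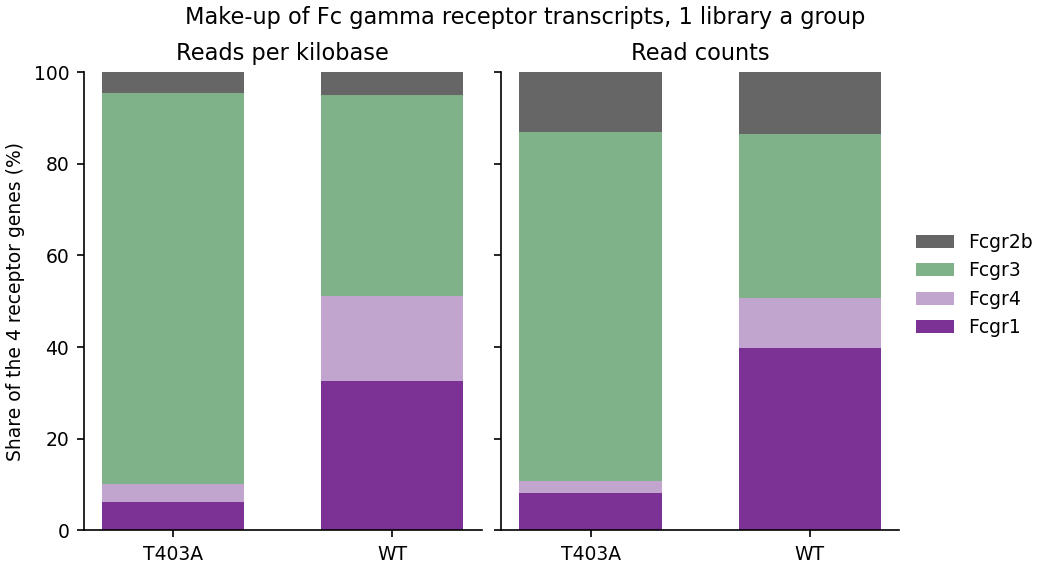
Stacked bars give the share (%) of Fcgr1, Fcgr4, Fcgr3 and Fcgr2b in the sum over these genes, from reads per kilobase of deposited length (left) and from read counts (right), in the T403A and WT libraries. By reads per kilobase Fcgr3 took 85.4% in T403A and 43.9% in WT, and Fcgr2b 4.42% and 4.95%.

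Per length, the order of the 8 genes also differed between the libraries. In T403A, the levels in CPM per kilobase (RPKM, the TMM-scaled CPM over the deposited length) ran from Fcer1g (861), Fcgr3 (283), Syk (80.6), Inpp5d (45.3), Fcgrt (34.2) and Fcgr1 (20.2) down to Fcgr2b (14.7) and Fcgr4 (13.6). In WT the order was Fcer1g (1019), Fcgr3 (238), Fcgr1 (177), Syk (102), Fcgr4 (99.9), Inpp5d (52.6), Fcgrt (26.8) and Fcgr2b (26.8). The counting intervals of Fcgr2b (14.0 to 15.4 RPKM) and Fcgr4 (12.2 to 15.1) overlapped in T403A, as did those of Syk (101 to 104) and Fcgr4 (95.4 to 104), and of Fcgrt and Fcgr2b, in WT. The other neighbours in each order were separated by more than counting error at the deposited length, and the spread between cultures is unknown. The orders between genes also depend on the length used. Per kilobase of the longest coding transcript, Fcgr2b (5.67% of the sum over the 4 receptor genes) was above Fcgr1 (4.78%) in T403A. Among all measured genes, Fcgr1 ranked 2135th by RPKM in T403A and 216th in WT, and Fcgr4 3169th and 420th. Fcer1g ranked 25th in T403A and 24th in WT, and Fcgr3 86th and 143rd.

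Fcgrt (ENSMUSG00000003420, chromosome 7, 45092990 to 45103851, minus strand) had 1433 counts in T403A and 846 in WT. Its level was 71.9 CPM in T403A and 56.4 CPM in WT, a ratio of 1.27 (1.17 to 1.39). Its partner B2m, which encodes the light chain of both FcRn and class I molecules, was at 1829 CPM in T403A and 4677 CPM in WT, 2.56-fold lower. Counts of Fcgrt per B2m count were 3.26-fold higher in T403A (2.99 to 3.56), so the genes of the heavy and light chains of FcRn differed in opposite directions, although the ratio of Fcgrt did not reach 1.5-fold.

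Of the signalling partners, Syk (ENSMUSG00000021457, chromosome 13, 52583173 to 52648792, plus strand) had 15047 counts in T403A and 14375 in WT. Its level was 755 CPM in T403A and 958 CPM in WT, a ratio of 0.787 (0.770 to 0.806). Inpp5d (ENSMUSG00000026288, chromosome 1, 87620312 to 87720507, plus strand) had 6863 counts in T403A and 6001 in WT. Its level was 344 CPM in T403A and 400 CPM in WT, a ratio of 0.860 (0.831 to 0.891). The kinase and the phosphatase differed little relative to each other, with 2.19 Syk counts per Inpp5d count in T403A and 2.40 in WT. These ratios are near those of Fcer1g and of Tyrobp, the related ITAM adaptor DAP12 (483 CPM in T403A and 559 CPM in WT, ratio 0.865, 0.840 to 0.891). Hcst, which encodes the adaptor DAP10, had 68 counts in T403A and 70 in WT. Cd79b, named beyond the rule as the remaining measured gene of the adaptor list, had 20 counts in T403A and 8 in WT. Its ratio was 1.88, with a wide interval (0.794 to 4.94). Tyrobp, Hcst and Cd79b were not counted as lower or higher.

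Scaling shifts every ratio by the same factor. Scaling by library totals in place of TMM raised all log2 ratios by 0.19. Against totals, Inpp5d had a ratio of 0.983 and Fcer1g 0.965, while Fcgr1, Fcgr4 and Fcgr2b were still counted as lower and none of the 8 genes as higher.

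Fcgr2b, Fcgr4, Fcgr3 and Fcer1g lie within a short stretch of chromosome 1. The gap from Fcgr2b to Fcgr4 is 42372 bases, from Fcgr4 to Fcgr3 21412 bases and from Fcgr3 to Fcer1g 164636 bases. In the stretch, set after values were seen and by position alone, from 100 kb before Fcgr2b to 100 kb beyond Fcer1g, 11 other genes were measured, of which 0 were lower and 2 higher, Pcp4l1 (38.4 CPM in T403A and 11.9 CPM in WT) and Tomm40l (7.97 and 4.60 CPM). The nearest measured genes on either side of the 3 receptor genes, Dusp12 and Sdhc, had ratios of 0.875 (0.570 to 1.35) and 1.12 (1.04 to 1.20). With 10.8% of all measured genes lower and 13.5% higher, these counts over 11 genes do not set the stretch apart. The receptor-like genes Fcrla and Fcrlb, next to Fcgr2b, had at most 3 counts in a library.

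A list of other Fc receptor genes, which also holds receptor chains and receptor-like genes, mostly gave few counts. Of the 13 listed, 5 had no count in either library (Fcer1a, Fcer2a, Fcamr, Fcmr and Pigr) and only Fcrls, Trim21 and Fcrl1 were measured. None of these 3 reached 1.5-fold. Fcrls was at 59.2 CPM in T403A and 76.6 CPM in WT. Trim21, the cytosolic antibody receptor, was at 41.2 CPM in T403A and 58.7 CPM in WT. Fcrl1 was at 32.8 CPM in T403A and 22.2 CPM in WT, a ratio of 1.48, and it was counted as higher when library totals were used.

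The Src family list, whose kinases phosphorylate the ITAM, had 5 of 8 measured genes lower and none higher (median log2 ratio -0.78). For this and the lists that follow, the shares over all measured genes were 10.8% lower and 13.5% higher. Fgr was at 38.4 CPM in T403A and 101 CPM in WT, 2.64-fold lower (2.42 to 2.88), and Src 2.49-fold lower (2.01 to 3.10). The more abundant Lyn, at 202 CPM in T403A and 356 CPM in WT, was 1.76-fold lower. Pag1, which anchors the Src inhibitor Csk at the membrane, was 1.75-fold lower, while Ptprc (CD45) was within 1.5-fold. Against library totals, 4 genes of this list were lower and 1 was higher.

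Downstream of Syk, the list of 40 genes, all measured, had 5 lower, 3 higher and 32 that met neither rule (median log2 ratio -0.08). The share lower was near the 10.8% of all measured genes, and 13.5% of all measured genes were higher. The adaptor Pik3ap1 (BCAP) was at 361 CPM in T403A and 827 CPM in WT, 2.29-fold lower (2.23 to 2.36). Sh3bp2 was 1.54-fold lower and Pik3r5, a subunit of phosphoinositide 3-kinase gamma, 1.51-fold lower. The linker Lat2 was 2.18-fold higher (2.005 to 2.369), at 110 CPM in T403A and 50.5 CPM in WT, and the kinase Tec 1.72-fold higher. Beyond the naming rule, Prkce was 1.80-fold lower and Card9 1.51-fold higher. The most abundant gene of the list, Prkcd, had a ratio of 1.08. Against library totals, 3 genes were lower and 5 higher.

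The list of other inhibitors of ITAM signalling held 21 genes, all measured, with 4 lower, 3 higher and a median log2 ratio of -0.21. Over all measured genes, 10.8% were lower and 13.5% higher. The list also holds Lilra5, which is not an inhibitory receptor and had 7 counts in T403A and 13 in WT, neither lower nor higher by the rule. Siglece, an inhibitory receptor for sialic acid, was at 8.78 CPM in T403A and 112 CPM in WT, 12.8-fold lower (10.93 to 15.02), and Cd300lf was 6.49-fold lower (5.28 to 8.03). The adaptor Dok2 was 2.15-fold lower and the collagen receptor Lair1 1.58-fold lower. Cd200r1 was at 161 CPM in T403A and 61.3 CPM in WT, 2.62-fold higher (2.43 to 2.82), and Ceacam1 was 1.88-fold higher. Sh2d1b1, named beyond the rule as the remaining higher gene, had 220 counts in T403A and 107 in WT. Sirpa, the most abundant inhibitory receptor of the list, had a ratio of 0.995, and Pirb, which shares sequence with its activating relatives, 0.694.

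**Figure D4:**
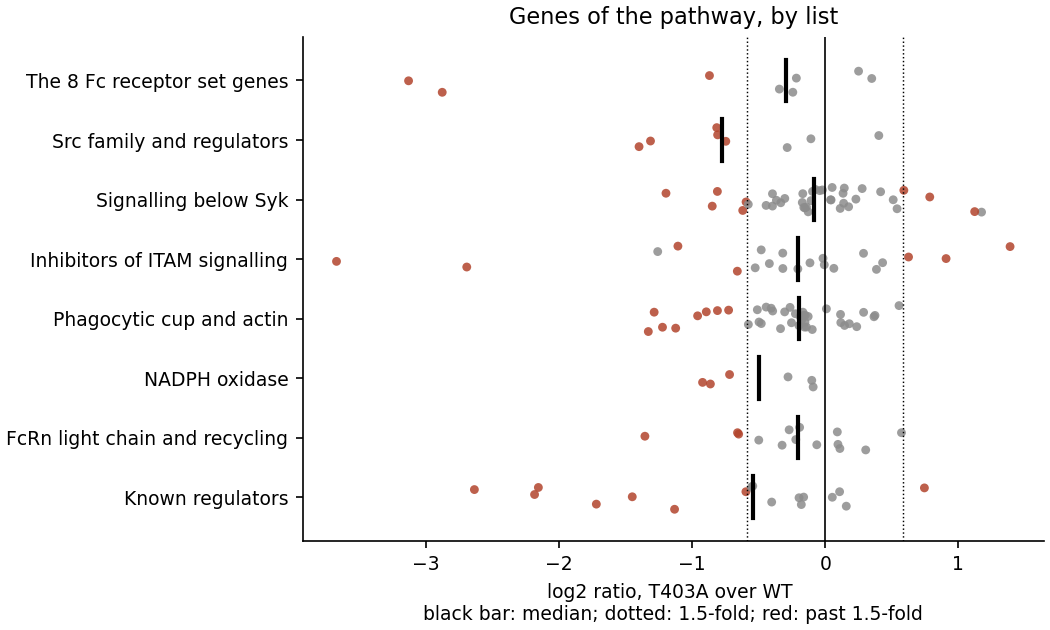
Each point is the log2 ratio (T403A over WT) of 1 measured gene, by list, with the 8 Fc receptor set genes at the top, black bars at the medians and dotted lines at 1.5-fold. Grey points beyond a dotted line have a counting interval that includes 1, and red points meet the 1.5-fold rule, such as Fcgr1, Fcgr4 and Fcgr2b in the top row and 5 genes of the Src family list.

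Among genes of the phagocytic cup and its actin, 8 of the 41 measured were lower and 0 higher (median log2 ratio -0.20), beside 10.8% and 13.5% of all measured genes. Marcksl1 was 2.51-fold lower, Evl 2.44-fold, Cyfip1 2.33-fold, Myo10 2.18-fold, the actin nucleator subunit Actr3 1.94-fold and Vasp 1.86-fold lower. The abundant Tln1 (talin) and Cfl1 (cofilin) were within 1.5-fold. Of the 6 NADPH oxidase genes, which make the oxidative burst, 3 were lower and 0 higher. Cybb, the catalytic subunit, was at 3163 CPM in T403A and 5990 CPM in WT, 1.89-fold lower (1.88 to 1.91), Ncf4 was 1.82-fold and Cybc1 1.65-fold lower, and Ncf1 was within 1.5-fold.

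Among genes of FcRn transport, 3 of 14 measured genes were lower and 0 higher, where 10.8% and 13.5% of all measured genes were. These were B2m, the recycling GTPase gene Rab11a (1.57-fold) and its effector gene Rab11fip1 (1.58-fold). Against library totals, 1 gene of this list was lower and 1 higher. A list of transcription factors and receptors known to act on Fc gamma receptor genes had 7 of 17 measured genes lower and 1 higher (Klf4, 1.68-fold, named beyond the rule). Nr1h3 was 4.55-fold lower, Cebpb 3.30-fold lower and Irf9 2.73-fold lower. Spi1, which encodes PU.1, had a ratio of 0.757 (0.734 to 0.780), and C5ar1, the C5a receptor gene, 0.681.

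Several genes of these lists share exons with another annotated gene. Lyn, Lat2, Card9, Evl, Cyfip1, Tln1, Cfl1, Cybc1, Ncf1, Rab11fip1 and Cebpb do so on the opposite strand, and Rab11a, Nr1h3, Irf9 and Prkce on the same strand. The other 7 of the 8 Fc receptor set genes have no such overlap.

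Markers of other cells that marrow cultures can hold were given beside these results because several such cells carry Fc receptors. The 10 macrophage markers summed to 45282 CPM in T403A and 57667 CPM in WT, with 5 lower and 0 higher, Fcgr1 being one of the 5. The 6 monocyte markers summed to 48.0 CPM in T403A and 116 CPM in WT, with 2 of the 5 measured lower and 0 higher. Most of that difference was Ly6c2, at 1.55 CPM in T403A and 64.7 CPM in WT, while Ccr2 was at 25.1 CPM in T403A and 22.7 CPM in WT. Neutrophil markers summed to 8.27 CPM in T403A and 7.20 CPM in WT, with Ly6g and Elane at 0 in both libraries. Of the 4 measured, 1 was lower (Camp, 10 counts in T403A and 22 in WT) and 1 higher (S100a9, 77 and 28 counts). Mast cell and basophil markers summed to 1.76 CPM in T403A and 0.467 CPM in WT, and NK cell markers to 2 counts in T403A and 0 in WT. Dendritic cell markers summed to 1.05 CPM in T403A and 2.47 CPM in WT and B cell markers to 6.22 CPM in T403A and 4.73 CPM in WT. Platelet and megakaryocyte markers summed to 7.87 CPM in T403A and 38.5 CPM in WT, mostly Pf4 (4.71 and 33.8 CPM). Osteoclast markers summed to 12.6 CPM in T403A and 19.1 CPM in WT, with Acp5 lower (1.91 and 11.5 CPM) and Ctsk higher (9.68 and 5.87 CPM). The T cell markers found in the table summed to 6 counts in T403A and 7 in WT. The part of these markers in the Fc receptor results was not tested.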

How the data were processed

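RNA of 1 T403A and 1 WT library was analysed, with groups and columns taken from the sample titles. The authors deposited whole-number read counts per Ensembl gene with a gene length in bases, per the file headers. The build GRCm38 and the tools HISAT2, HTSeq 0.9.1, cutadapt 1.15 and DESeq 1.30.0 appear, without roles, in the submitters' processing notes. Not given in the sources used here: annotation release, strand setting, read length and the handling of multiply mapped reads.

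Symbols matched 21969 of 22060 identifiers. Positions and exon overlaps come from GENCODE M21 and promoters from RefSeq (GRCm38.p6). For all 8 genes the deposited length equals the union of M21 exons. Counts were scaled by TMM over all rows (edgeR 4.0.16, R 4.3.3). Ratio intervals are Clopper-Pearson intervals on the 2 counts, and intervals of count ratios between genes are exact conditional odds ratio intervals (scipy 1.17.1). These bounds, and the floor of 3 counts that a gene at 0 allows (0.15 CPM in T403A, 0.20 CPM in WT), hold counting error alone. Medians use log2 ratios with a prior count of 0.5. The interval computation was tested on simulated data.

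The 8 genes, the lists and the rules were chosen with earlier results of these data known. Named genes of a list are those past 1.5-fold (the 6 farthest from 1 by interval where more were) and the 2 with the highest summed count. The alternatives were library totals, DESeq2 1.42.0 size factors, TMM on filtered genes, no count minimum, a minimum of 100, 2-fold, summed Fcgr2b and Fcgr3 reads and other lengths. The longest coding transcript length was added after seeing the data. Some genes that this rule names are not reported here.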

Additional observations from a re-analysis of the deposited data

How the results depend on the processing

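No paired analysis was possible because each group is 1 library, and for the same reason no replicate could be left out. DESeq2 size factors, TMM on the measured genes alone, no count minimum and a minimum of 100 counts left the counts of lower (3) and higher (0) genes among the 8 as they were, and the ratios of the 8 genes inside their counting intervals where these settings touch them. Scaling by library totals gave ratios of 0.130 for Fcgr1, 0.155 for Fcgr4, 0.625 for Fcgr2b, 1.36 for Fcgr3, 0.965 for Fcer1g, 1.46 for Fcgrt, 0.899 for Syk and 0.983 for Inpp5d, outside those intervals by construction, with 890 measured genes lower and 2290 higher, against 1214 and 1515 with TMM. At 2-fold, 681 were lower and 808 higher. Summing Fcgr2b and Fcgr3 reads gave a ratio of 1.01 (0.986 to 1.04), which is mostly Fcgr3 reads, includes 1 and gives no direction for Fcgr2b. The activating to inhibitory ratio of 21.6 in T403A and 19.2 in WT was 6.60 and 6.42 without length and 16.6 and 13.3 per longest coding transcript. Of 36 list counts under alternatives, 7 moved by more than 1.5 times, all under library totals: higher counts of 1 in place of 0 for other Fc receptors, Src family, actin and FcRn transport genes, 3 lower and 5 higher in place of 5 and 3 below Syk, and 1 lower in place of 3 for FcRn transport. The depth limits genes such as Fcrla and Fcrlb, which lie near the floor of 3 counts, and variation between animals and cultures is not measured.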
